A study of Homo sapiens with 6 samples.

Results

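The AP-1 transcription factors described here are 10 genes, FOS, FOSB, FOSL1, FOSL2, JUN, JUNB, JUND, ATF3, BATF3 and MAFF, chosen by name. The estimated counts and TPM of their 57 annotated transcripts were summed per gene, out of 62252 genes in the annotation. RNA was measured in K562, a line of human erythroid leukemia cells, after an overnight treatment. The Chelator group (3 libraries) received 10 µM 21H7, an iron chelator that enters cells, and the DMSO group (3 libraries) received the same volume of the solvent. Both groups were grown in the same medium with serum, and neither carried a genetic change beyond those of the line. Nothing in the labels says that the 3 libraries of a group came from separate cultures, so p-values measure the spread between these libraries, which may be technical.

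AP-1 is a family of dimers of basic leucine zipper (bZIP) proteins. The zipper of a JUN protein pairs with that of a FOS, ATF, BATF or another JUN protein, and the pair binds short sites, TGANTCA (the AP-1 site) or TGACNTCA (the cAMP response element, CRE, and its variants). FOS proteins do not form stable dimers with each other and need a JUN partner. MAFF is a small MAF protein, which lacks a transactivation domain and pairs with NRF and BACH proteins as well as with FOS. Many AP-1 genes are immediate-early genes: kinase signals or stress raise their transcription within minutes, and AU-rich elements in several of their mRNAs shorten the life of the message.

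The promoter sequences of 8 of the 10 genes were read from RefSeq (build GRCh38.p14, 250 bases before the start site and 50 after it), and they are shown because the letters in capitals are those that AP-1 and CREB or ATF dimers read. FOSL1 and BATF3 have no entry in the table used. TGACNTCA, searched on both strands, occurred in 4 of the 8 promoters and in 7.69% of all 34796 promoters. The 4 matches, in capitals within their flanks and written on the strand of the gene, were:
JUN: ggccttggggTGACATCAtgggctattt
ATF3: acctatgataTGACATCAtatggccact
JUND: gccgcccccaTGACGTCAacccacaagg
MAFF: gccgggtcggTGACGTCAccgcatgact
The matches lie at chr1:58784097-58784124 (JUN, minus strand), chr1:212565274-212565301 (ATF3, plus strand), chr19:18281805-18281832 (JUND, minus strand) and chr22:38201930-38201957 (MAFF, plus strand). The capitals begin 67, 123, 200 and 54 bases before the start site, respectively. JUN and ATF3 held the same 8 letters, and JUND and MAFF both held the CRE palindrome. For genes with several start sites, only the promoter given by that source was read. That of ATF3 lies at the upstream end of the gene (chr1:212565334-212620777), and whether the main ATF3 transcript starts there was not tested.

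TGANTCA, also searched on both strands, occurred in 1 of the 8 promoters and in 7.73% of all promoters. It was found in FOSL2, with the capitals beginning at base 4 after the start, at chr2:28392852-28392878 on the plus strand:
FOSL2: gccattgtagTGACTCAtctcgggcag
TATAAA, searched on the strand of the gene, occurred in FOS, FOSB and JUNB and in 7.37% of all promoters. The CArG box, the serum response factor site, was matched in none of the 8 windows and in 1.3% of all promoters. Sequence outside these windows was not searched, so a CArG box farther upstream would have been missed. The search therefore cannot tell whether any of these genes, FOS included, has such a site. A match of letters is a description of the window and does not show that a factor binds there.

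In the 3′ untranslated regions of the canonical transcripts, the AU-rich nonamer TTATTTATT occurred in FOS, FOSL2 and MAFF, that is in 3 of 10, against 9.05% of 15762 tested coding genes. It is shown because it separates the members by a feature of the message, with the nonamer in capitals:
FOS: gtttttaatTTATTTATTaagatggat
FOSL2: tttattttaTTATTTATTttaaatgtt
MAFF, first site: ccccactgtTTATTTATTgcacggatc
MAFF, second site: tcctagaatTTATTTATTtcctgactt
The shorter pentamer ATTTA occurred in all 10 members and in 70.1% of the coding genes, from 1 copy in FOSL1, JUND and BATF3 to 9 copies in FOSL2.

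The libraries held between 78.6 M and 101.1 M estimated counts. The chi-square between the counts of a pair of libraries, per gene, was 6.22 to 58.1 within a group and 199 to 297 across groups, and the second DMSO library stood farthest from its group. Without it 8 of the 10 AP-1 genes were called, as with it. All 9 erythroid markers examined, among them GATA1, TAL1 and the fetal and embryonic globins, were at or above 1 TPM in every library, and their summed level was 12377 to 13720 TPM in DMSO and 17495 to 18682 TPM in Chelator. Among markers of other cell types, 4 each for T cells, B cells, monocytes, fibroblasts and epithelial cells, those at or above 1 TPM in every library included CD3D and EPCAM. The summed T cell markers were 10.8 to 17.0 TPM in DMSO and 39.9 to 41.8 TPM in Chelator, and the epithelial ones 62.4 to 68.9 and 45.8 to 50.4 TPM. The monocyte (0.0385 to 0.223 and 0.139 to 0.174 TPM) and fibroblast markers (0.556 to 0.728 and 1.75 to 2.28 TPM) were low, with MS4A1 and S100A12 at 0 in every library. The mean fragment length was 253 to 265 bases in DMSO and 201 to 219 bases in Chelator, so this length cannot be told apart from the treatment, and the part of these measures in the results below was not tested. In bulk RNA, a larger share of cells with a transcript and more of it per cell cannot be told apart either.

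All 10 AP-1 genes were higher in Chelator than in DMSO. By DESeq2's Wald test 8 of the 10 were called, that is with a Benjamini-Hochberg adjusted p below 0.05 and a change of more than 1 on the log2 scale, against 8.18% of the 24542 genes with an adjusted p that were called higher in Chelator (10.8% in either direction). JUND and FOSL1 passed the adjusted p but not the fold threshold. Without the fold threshold, an adjusted p under 0.05 with a higher level in Chelator was found for all 10 and for 19.5% of all genes. In each of the 10 genes every Chelator library lay above every DMSO library in normalized count, which holds for 24.8% of the 26074 genes tested. The median log2 fold change was 1.63 over the 10 genes and 0.016 over all genes with an adjusted p.

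**Figure D1:**
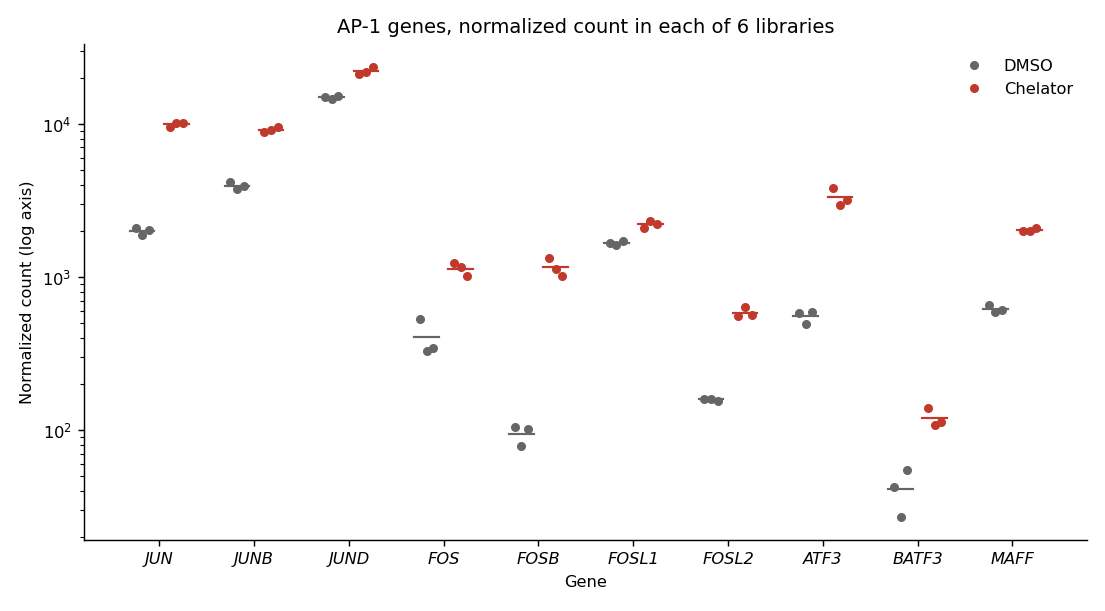
Normalized count (log axis) of each AP-1 gene in the 3 DMSO (grey) and 3 Chelator (red) libraries, with the mean of each group as a line. The Chelator points lie above the DMSO points in all 10 genes, and the gap is widest for FOSB and narrowest for FOSL1.

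The JUN proteins are the members that every classical AP-1 dimer needs. JUN (ENSG00000177606.9, chr1:58776845-58784048), the founding member and a substrate of JUN N-terminal kinases, had 2083, 1864 and 2017 normalized counts in DMSO and 9448, 10066 and 10136 in Chelator. The groups stood far apart, from 1988 ± 112 to 9883 ± 378 normalized counts (mean ± SD, n = 3). The log2 fold change was 2.31 ± 0.08 (SE, adjusted p = 8.60e-193 by DESeq2), or 4.97-fold. JUNB (ENSG00000171223.6, chr19:12791486-12793315), a weaker activator that can hold back JUN at some promoters, had 4158, 3747 and 3904 normalized counts in DMSO and 8810, 9027 and 9540 in Chelator. Its groups did not overlap, and its log2 fold change was 1.21 (SE 0.08, DESeq2 adjusted p = 5.29e-56). JUND (ENSG00000130522.6, chr19:18279694-18281622), the JUN protein that is present in most resting cells, had 14997, 14446 and 15052 normalized counts in DMSO and 21181, 21886 and 23602 in Chelator. It was the most abundant member in every library and had the smallest estimate of the 3 JUN genes, a log2 fold change of 0.58 ± 0.07 (SE, adjusted p = 6.56e-16 by DESeq2), below the fold threshold.

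The size of the changes in JUND and JUNB moved when trends with base composition and length were removed together. The transcripts of JUND held 69.9% G and C and those of JUNB 64.9%, the highest of the 10 members. The trends on GC content and length were fitted in each library to its log2 deviations from the gene means. With them removed, the log2 fold change was 0.01 for JUND (DESeq2 adjusted p = 0.909) and 2.02 for JUN. JUNB, at 0.77, then missed the fold threshold.

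The FOS proteins dimerize with JUN proteins. FOS (ENSG00000170345.10, chr14:75278826-75282230), the classical immediate-early gene, had 535, 330 and 346 normalized counts in DMSO and 1225, 1157 and 1018 in Chelator. The first DMSO library was the highest of its group, and the groups did not overlap. The log2 fold change was 1.49 (SE 0.18, DESeq2 adjusted p = 3.63e-16). FOSB (ENSG00000125740.15, chr19:45467995-45475179), whose protein carries a strong transactivation domain as FOS does, had 104, 78.7 and 101 normalized counts in DMSO and 1323, 1120 and 1018 in Chelator. FOSB had the largest change of the 10 genes, a log2 fold change of 3.61 ± 0.17 (SE, adjusted p = 2.14e-94 by DESeq2) or 12.2-fold, and 510 of the 24542 genes with an adjusted p had a larger log2 fold change. On the log2(TPM + 1) scale, which understates the change of low genes, the value of FOSB was 2.03, below ATF3 (2.37) and JUN (2.21).

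FOSL1 and FOSL2 encode FRA1 and FRA2, FOS relatives that lack the strong C-terminal activation domain. FOSL2 (ENSG00000075426.12, chr2:28392448-28417317) had 161, 160 and 155 normalized counts in DMSO and 553, 637 and 567 in Chelator. Its 3 DMSO values were close together, and the log2 fold change was 1.88 (SE 0.16, DESeq2 adjusted p = 1.60e-30). FOSL1 (ENSG00000175592.9, chr11:65892049-65900573) had 1667, 1624 and 1710 normalized counts in DMSO and 2100, 2302 and 2227 in Chelator. This was the smallest change of the 10 genes, a log2 fold change of 0.41 ± 0.09 (SE, adjusted p = 1.51e-05 by DESeq2), and with GC and length trends removed it was 0.04 (adjusted p = 0.772). FOSL1 thus had the highest level of the 4 FOS genes in both groups and the smallest log2 fold change.

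ATF3, BATF3 and MAFF encode small bZIP proteins that pair with JUN or FOS. ATF3 (ENSG00000162772.18, chr1:212565334-212620777), a stress-induced factor of the CREB and ATF family, had 585, 491 and 591 normalized counts in DMSO and 3778, 2965 and 3158 in Chelator. The first Chelator library was the highest, and the rise was the second largest of the 10, a log2 fold change of 2.57 ± 0.12 (SE, adjusted p = 4.06e-98 by DESeq2) or 5.94-fold. Without the length correction ATF3 was at 2.30, below JUN at 2.33. BATF3 (ENSG00000123685.9, chr1:212686417-212699840), a factor best known from dendritic cells and the next member along chromosome 1 after ATF3, had 42.5, 27.0 and 54.6 normalized counts in DMSO and 140, 108 and 113 in Chelator. It had the lowest counts of the 10 and the widest error, a log2 fold change of 1.55 ± 0.35 (SE, adjusted p = 5.19e-05 by DESeq2). MAFF (ENSG00000185022.12, chr22:38200767-38216507) had 652, 591 and 610 normalized counts in DMSO and 2000, 2002 and 2081 in Chelator. Its Chelator values differed little among themselves, and the log2 fold change was 1.71 (SE 0.10, DESeq2 adjusted p = 2.19e-66).

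**Figure D2:**
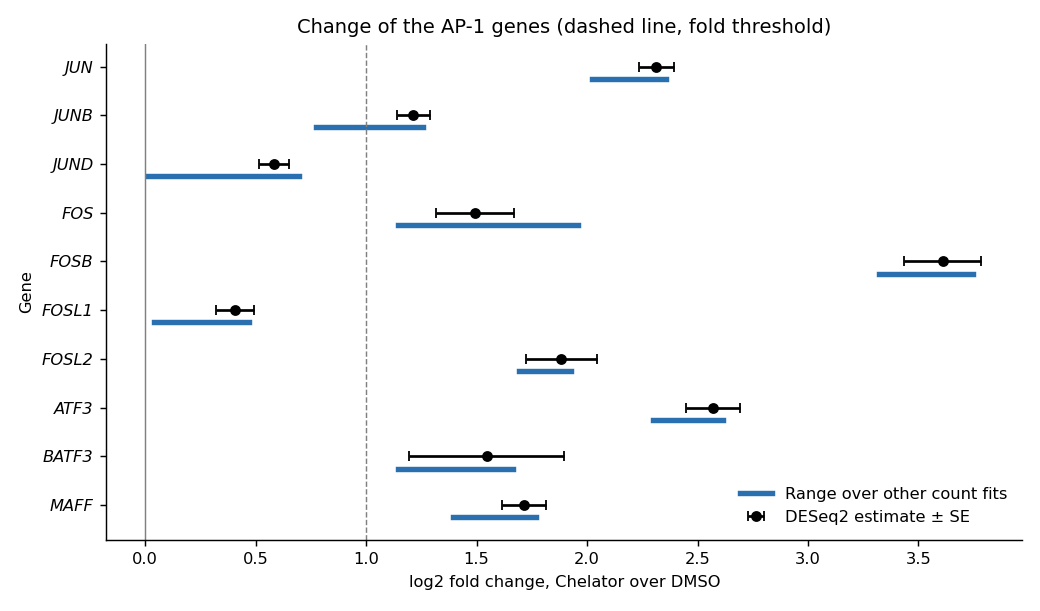
Log2 fold change of each AP-1 gene, Chelator over DMSO, as the DESeq2 estimate (black point, bar ± SE), with the range over the other count-based fits with all 6 libraries (blue bar) and the fold threshold (dashed). The blue bars of JUND and FOSL1 reach 0.01 and 0.04, that of JUNB crosses the fold threshold, and the others stay above it.

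Some of these genes overlap another gene on the opposite strand, and whether the libraries kept strand was not given in the sources used here. FOSB overlaps ERCC1, a DNA repair gene with 3875, 3916 and 3513 estimated counts in DMSO and 8211, 8998 and 7904 in Chelator, but none of FOSB's 31-base sequences occurred in ERCC1 transcripts. JUNB shared 12.7% of its 31-base sequences with HOOK2, which had 1836, 1452 and 1460 estimated counts in DMSO and 1919, 2314 and 1996 in Chelator, fewer than JUNB in every library. MAFF shared 5.49% with PLA2G6, a phospholipase gene with 242, 175 and 202 estimated counts in DMSO and 1004, 1206 and 1095 in Chelator, again fewer than MAFF. Its main transcript, MAFF-201, shared 18.4% of its 31-base sequences with transcripts of other genes on either strand. FOSL2 overlaps FOSL2-AS1, which had 59.4, 33.6 and 36.7 estimated counts in DMSO and 31.1, 35.0 and 22.6 in Chelator and shared none of its 31-base sequences. The levels of MAFF and JUNB are therefore uncertain to the extent of these shared sequences.

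To compare levels between genes, TPM, which corrects for transcript length, was used. In DMSO the order was JUND (86.3 ± 6.36 TPM, SD, n = 3), JUNB (25.6 ± 1.48), FOSL1 (16.2 ± 1.23), JUN (8.15 ± 0.332), FOS (4.99 ± 1.13), ATF3 (4.78 ± 0.0763), MAFF (3.27 ± 0.206), BATF3 (0.787 ± 0.213), FOSB (0.368 ± 0.0215) and FOSL2 (0.325 ± 0.0347). In this order FOS overlapped ATF3 and FOSB overlapped FOSL2, and the other neighbours did not overlap. In Chelator the order of TPM was JUND (131.9 ± 9.18), JUNB (60.6 ± 3.42), JUN (41.4 ± 2.65), ATF3 (29.0 ± 2.89), FOSL1 (22.0 ± 1.65), FOS (14.4 ± 1.26), MAFF (10.97 ± 0.409), FOSB (4.605 ± 0.533), BATF3 (2.37 ± 0.275) and FOSL2 (1.22 ± 0.130), and no neighbours overlapped. JUN and ATF3 lay below FOSL1 in DMSO and above it in Chelator, and FOSB lay below BATF3 in DMSO and above it in Chelator. The Chelator level of ATF3 included 9.20, 3.87 and 6.94 TPM of a short transcript, ATF3-210. The main form, ATF3-202, was alone at 19.5, 20.1 and 18.3 TPM, against 20.3, 23.5 and 22.1 TPM for FOSL1.

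The summed TPM of the 10 genes was 146, 161 and 145 in DMSO and 304, 324 and 328 in Chelator. JUND took 57.2 ± 1.11% of the sum in DMSO and 41.4 ± 1.34% in Chelator, and JUN 5.41 ± 0.1005% and 13.004 ± 0.395%. JUNB was at 17.0 ± 0.355% and 19.0 ± 0.344%. ATF3 was at 3.18 ± 0.217% and 9.14 ± 1.28%, and FOSL1 at 10.8 ± 0.299% and 6.90 ± 0.331%. The groups of none of these 5 shares overlapped. The summed TPM of the 3 JUN genes divided by that of the 4 FOS genes was 5.19, 5.64 and 5.59 in DMSO and 5.21, 5.34 and 6.09 in Chelator, so these ratios overlapped. With 3 libraries against 3, a two-sided exact permutation test cannot give a p under 0.1, and the shares are given as a description.

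**Figure D3:**
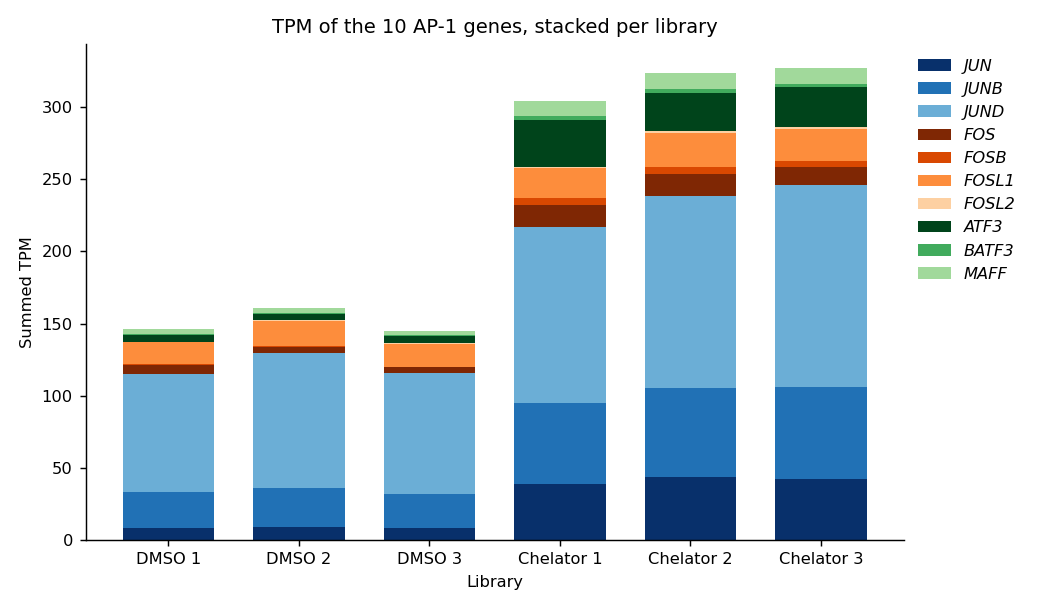
TPM of the 10 AP-1 genes stacked for each library, with the JUN genes in blue, the FOS genes in orange and brown and ATF3, BATF3 and MAFF in green. The bars reach 145 to 161 TPM in DMSO and 304 to 328 TPM in Chelator, and the JUN and ATF3 segments take a larger share of the Chelator bars.

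Transcripts within each gene were compared next. AP-1 genes with at least 2 transcripts of at least 10 counts in at least 3 libraries could be tested for usage with edgeR's diffSpliceDGE, and 7 of the 10 qualified. ATF3 was the member called, against 9.22% of 11938 genes tested. The call rested on ATF3-210, which passed the filter on counts only through the Chelator libraries, and it is given as a description. ATF3-210 is a short transcript (581 bases, 124 coding residues) beside the main form ATF3-202 (1940 bases, 181 residues). ATF3-210 had 0 estimated counts in DMSO and 276, 127 and 196 in Chelator. It made up 28.5%, 14.4% and 24.9% of the gene's TPM in Chelator, and the call was lost when any 1 of the 3 Chelator libraries was left out, because the transcript then reaches 10 counts in only 2 libraries. In counts, its Chelator share of the gene was 8.06%, 3.59% and 6.97%, and a count of 0 in DMSO allows a share of up to 0.485%, 0.578% and 0.549%, which covers counting error only. ATF3-202 had 522, 451 and 474 estimated counts in DMSO and 2795, 3097 and 2398 in Chelator, and so held most of the counts of the gene in every library.

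In FOS, the canonical transcript FOS-201 (380 residues) had 115, 137 and 98.7 estimated counts in DMSO and 952, 980 and 799 in Chelator. Its share of the gene's TPM was 12.3%, 24.2% and 18.6% in DMSO and 40.4%, 39.6% and 44.8% in Chelator, with the other TPM in shorter annotated forms. The groups did not overlap, but the quasi-likelihood test gave an edgeR adjusted p of 1.000 for FOS, against a limma diffSplice adjusted p of 0.00155. The average effective length of FOS transcripts, weighted by TPM, was 791 to 931 bases in DMSO and 1195 to 1237 bases in Chelator. Effective length also depends on fragment length, which differed between the groups. The log2 fold change of FOS was 1.96 without the length correction and 1.49 with it. In FOSL1, FOSL1-204 (135 residues) took 6.55%, 14.9% and 16.1% of the gene's TPM in DMSO and 28.0%, 30.5% and 32.0% in Chelator, while FOSL1-203 (235 residues) took 29.9%, 32.7% and 24.5% in DMSO and 11.1%, 11.8% and 12.5% in Chelator. The FOSL1 groups did not overlap either, with an edgeR adjusted p of 0.329 and a limma diffSplice adjusted p of 2.93e-05.

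FOSB forms were spread unevenly over libraries. The full-length FOSB-201 (338 residues) had 65.4, 0 and 24.3 estimated counts in DMSO and 917, 721 and 745 in Chelator. FOSB-211 codes for 237 residues, the length of the truncated ΔFOSB protein, and had 0 estimated counts in 5 libraries and 42.9 in the first Chelator library. JUN was divided between JUN-201, without introns, and JUN-202, a spliced form annotated as a target of nonsense-mediated decay with the same 331 coding residues. JUN-201 took 46.5%, 37.4% and 48.4% of the gene's TPM in DMSO and 51.2%, 52.8% and 51.0% in Chelator, and both forms had higher counts in every Chelator library than in any DMSO library. JUNB, JUND and MAFF were almost entirely their main transcripts, at 92.5% or more of the gene's TPM in every library. BATF3-201 took 98.3% or more. FOSL2-201 took 97.2% or more in 5 libraries and 67.6% in the second Chelator library, where a short form of 889 bases took the other part with 29.4 counts.

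**Figure D4:**
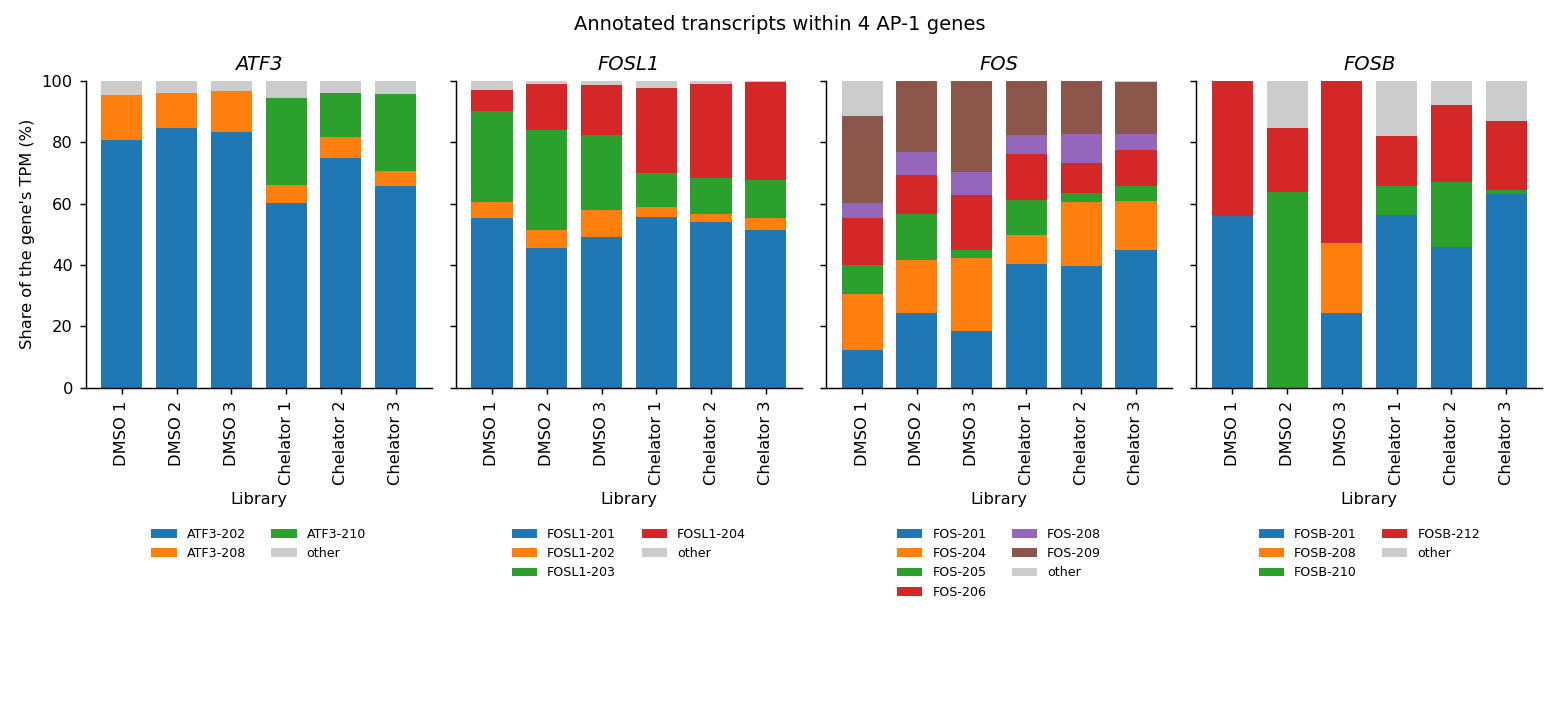
Share of the gene's TPM (%) taken by each annotated transcript of ATF3, FOSL1, FOS and FOSB in the 6 libraries, with transcripts under 3% on average pooled as other. ATF3-210 appears only in the Chelator bars (28.5%, 14.4% and 24.9%), FOS-201 and FOSL1-204 take larger shares there, and the FOSB shares differ widely among the DMSO libraries.

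Lists of related genes, chosen with earlier results of these data known, were set beside the AP-1 genes as a description. Of 26 other bZIP genes, which can pair or compete with AP-1 proteins, 24 had an adjusted p, and 7 were called higher and 0 lower by DESeq2. This is 29.2% called higher, beside 8.18% of all genes, and the median log2 fold change was 0.22. JDP2, a repressor that binds JUN proteins and AP-1 sites, rose from 159 ± 8.07 to 931 ± 98.9 normalized counts (mean ± SD, n = 3). The log2 fold change was 2.55 ± 0.15 (SE, adjusted p = 1.91e-64 by DESeq2). BACH2, a repressor that pairs with small MAF proteins, had 379 ± 49.1 and 2091 ± 334, higher by 2.47 on the log2 scale. CREB5 rose by a log2 fold change of 2.44, and MAFA by 1.56. DDIT3 (CHOP) and ATF4, factors of the integrated stress response, rose by log2 fold changes of 2.32 and 1.48, ATF4 from 13627 ± 1044 to 38021 ± 921 normalized counts. ATF5 was the remaining called gene, with a log2 fold change of 1.26. NFE2L1, a partner of small MAF proteins, had a log2 fold change of 0.14 (DESeq2 adjusted p = 0.0951). Without the fold threshold, 11 of the 24 bZIP genes were higher and 4 lower, beside 19.5% and 18.3% of all genes with an adjusted p.

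Of 30 genes of the MAP kinase cascades and of the SRF, TCF and MEF2 factors, which control transcription of FOS and JUN genes, none was called by DESeq2 in either direction. By the unadjusted p, 17 of the 30 were under 0.05, beside 41.6% of all genes tested, and edgeR's quasi-likelihood test and limma on log2 TPM called 0 as well. Without the fold threshold 7 of the 30 were higher and 10 lower, beside 19.5% and 18.3% of all genes with an adjusted p, and the median log2 fold change was 0.001. MAP2K2, a kinase of the ERK cascade, had 15561 ± 363 normalized counts in DMSO and 14805 ± 1170 in Chelator (mean ± SD, n = 3), with an estimate of -0.07 ± 0.08 on the log2 scale (SE, adjusted p = 0.515 by DESeq2). The mRNA levels of these genes do not measure their phosphorylation.

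Of 25 genes described elsewhere as AP-1 targets, 20 had an adjusted p, and 12 were called higher and 0 lower by DESeq2, 60.0% beside 8.18% of all genes. As this list was chosen with earlier results known, the share is a description. The median log2 fold change was 1.497. CD44, a hyaluronan receptor, rose from 55.2 ± 21.0 to 2669 ± 37.8 normalized counts (mean ± SD, n = 3), by 5.65 ± 0.18 on the log2 scale (SE, adjusted p = 9.53e-203 by DESeq2). The cytokine genes CXCL8 and IL6 rose by log2 fold changes of 3.31 and 2.43, at 335 ± 19.9 and 246 ± 27.2 normalized counts in Chelator. TIMP1, an inhibitor of matrix metalloproteinases, rose from 5040 ± 510 to 46796 ± 742, by 3.21 on the log2 scale. The intermediate filament gene VIM rose from 25733 ± 1153 to 60353 ± 6837, by 1.23 on the log2 scale, and EZR, which links membrane and actin, was at 0.22 (SE 0.08, DESeq2 adjusted p = 0.0185). These genes also answer to other factors, and whether AP-1 acts on them here was not tested.

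**Figure D5:**
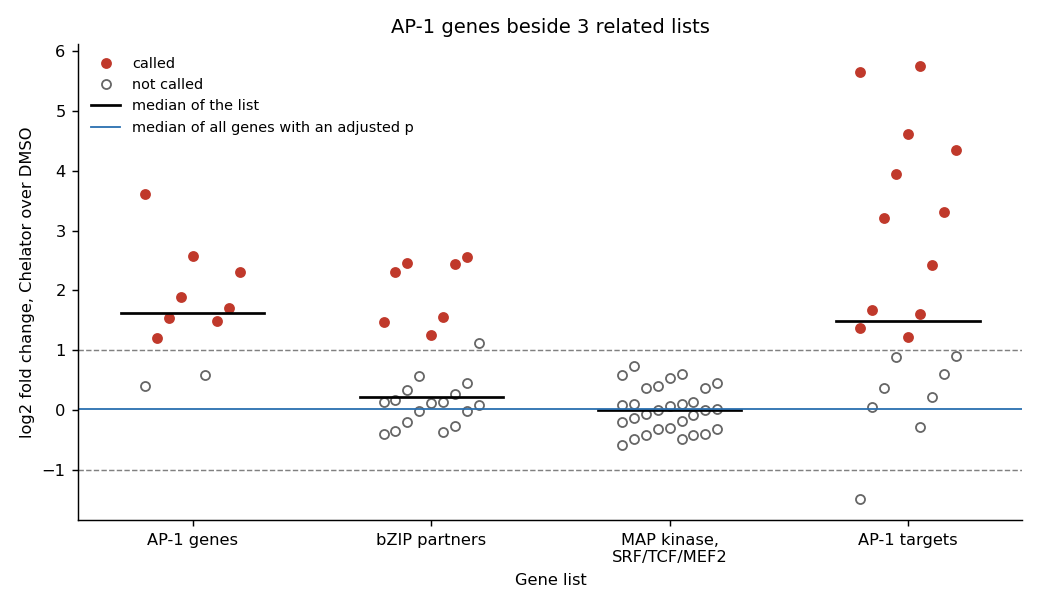
Log2 fold change, Chelator over DMSO, of each gene with an adjusted p in the AP-1 genes and in the 3 related lists, with called genes in red, other genes open, the median of each list as a black line, the median of all genes as a blue line and the fold thresholds dashed. Called genes number 8 of 10, 7 of 24, 0 of 30 and 12 of 20 from left to right.

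The genes whose pattern over the 6 libraries was nearest to that of the 10 AP-1 genes were sought among 13483 other genes whose mean normalized count was 100 or more, as the smallest root mean square distance between log2 values centred on each gene's mean. They were DLGAP1-AS2 (distance 0.059 in log2 units), HSPA6 (0.061), TNFRSF10B (0.065), KLF10 (0.066) and GPAT3 (0.067). HSPA6 is an inducible heat shock protein, TNFRSF10B a receptor for the death ligand TRAIL, KLF10 a factor induced by TGF-beta and GPAT3 an enzyme of triglyceride synthesis, while DLGAP1-AS2 is a long noncoding RNA. Their log2 fold changes were 1.64, 1.78, 1.80, 1.76 and 1.72, respectively. In the mean profile of the AP-1 genes the second DMSO library was the lowest (-1.02) and the first Chelator library the highest (0.91).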

How the data were processed

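Polyadenylated RNA of K562 cells was sequenced as paired-end Illumina reads in 3 Chelator and 3 DMSO libraries, grouped by their labels. The authors quantified transcripts with Salmon 1.10.2. The deposited files give an estimated count per transcript, which need not be whole, and TPM, the deposited counts per effective length scaled to a common sum. The deposited effective lengths were used for the average transcript length of each gene. The annotation and bias settings were not given in the sources used here.

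Each transcript was assigned to its gene through GENCODE release 44 (GRCh38): 251612 of 252045 matched, and the other 433 held 0.139% to 0.150% of the counts and were left out. Counts were summed per gene and rounded. Genes with a total above 10 (26074) entered DESeq2 1.42.0 (R 4.3.3) with median-ratio size factors and the average transcript length as an offset. Normalized counts are counts divided by both. Usage was tested with edgeR 4.0.16 (adjusted Simes p under 0.05 and a share change above 5 percentage points). Alternatives included limma 3.58.1 on log2(TPM + 1) and log2(TPM + 0.1), TMM scaling, removal of GC and length trends (mgcv 1.9.3) and leaving out each library.

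The 10 members and the lists were chosen with earlier results of these data known. Named were all members, the called genes of each list whose mean normalized count was 100 or more (up to 5 by change) and the 2 of highest count. ATF5 was named after its values were seen. Some genes that this rule names are not reported here.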

Additional observations from a re-analysis of the deposited data

How the results depend on the processing

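The estimate was above 0 for the 10 AP-1 genes in all 180 combinations of gene and setting (18 settings). Of these, 172 kept the gene's status as called or not called. With GC and length trends removed, JUND (0.01, adjusted p = 0.909) and FOSL1 (0.04, adjusted p = 0.772) no longer passed the adjusted p, and JUNB (0.77) missed the fold threshold. With a test against an absolute log2 fold change of 1, 5 AP-1 genes were called, and FOS (adjusted p = 0.158), JUNB (0.152) and BATF3 (1) were lost. With limma on log2(TPM + 1), where small values are drawn together, FOSL2 (0.75) and BATF3 (0.92) missed the fold threshold, and FOSB was at 2.03, below ATF3 and JUN. Over all genes the calls numbered 674 with the test against a log2 fold change of 1, 9260 with no fold threshold and 797 with limma on log2(TPM + 1), against 2646. Without the fold threshold the bZIP genes gave 11 higher and 4 lower, and the MAP kinase and SRF, TCF and MEF2 genes 7 higher and 10 lower, where 19.5% of all genes were higher and 18.3% lower. Of all calls 75.9% were higher, against 58.7% both with centring on the mean log2 change and with GC and length trends removed, which moved the median log2 fold change of all genes to -0.17 and -0.13, and 8 and 7 AP-1 genes were then called. For transcript usage, 3 members were called by limma diffSplice (ATF3, FOS and FOSL1) and 2 by a likelihood-ratio fit chosen after seeing the data (ATF3 and FOSL1), against 1, and leaving out 1 library gave 0 to 1. Leaving out any library left 8 AP-1 genes called.

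Deviations of same-numbered libraries correlated at -0.018, 0.085 and 0.036, and those of the other pairs at -0.088 to 0.058. Whether the replicate numbers paired the libraries cannot be told from 3 libraries per group. With a replicate block 8 AP-1 genes, 1 AP-1 usage change and 2342 genes were called. BATF3, with the lowest counts, had the widest standard error, 0.35.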
